A study of Mus musculus with 4 samples.

Results

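Neurotransmitter receptor genes were chosen by their names. Protein-coding genes of GENCODE M21 on the assembled mouse chromosomes whose symbol starts with a stem of the glutamate, GABA, glycine, acetylcholine, serotonin or dopamine receptor families were taken, save 1 that is not analysed here. This gave 92 genes of 21911. The naming rule itself uses no measured value. The measure was Foxr2 binding, mapped by CUT&RUN (an antibody-guided nuclease releases the DNA around a bound protein, and the released fragments are sequenced) with an antibody against the V5 tag. The Foxr2 p53LOF group held 2 libraries from a C57BL/6J mouse tumour cell line with the genotype FOXR2 P53LoF, made by in utero electroporation of a vector with V5-tagged Foxr2 and disruption of p53. The V5 control group held 2 libraries from a separate electroporation model of the same strain, with the genotype H3.3G34R and no V5 tag. Both groups were fixed with 0.1% formaldehyde for 1 minute and used 500000 cells a sample. The tagged protein was driven by the constitutive CAG promoter, the tagged libraries came from 1 line, and the sources do not say whether replicates came from separate cultures, so the spread between replicates may be technical. CUT&RUN measures no transcript, and whether these cells express a receptor was not measured here.

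These receptors read the chemical signals that neurons release. Ionotropic receptors (AMPA, kainate, NMDA and delta glutamate receptors, GABA-A and glycine receptors, nicotinic acetylcholine receptors) are assembled from subunits around an ion channel, while metabotropic receptors (Grm, GABA-B, muscarinic, dopamine and most serotonin receptors) signal through G proteins. Many of the genes are long, neuron-restricted and regulated by distal elements, and a long gene meets more peaks than a short one, so counts are given beside the number that gene length alone would give. FOXR2 is a forkhead family protein that is activated in some brain tumours, and ETS factors bind a core of GGAA.

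A site in the following is a stretch covered by a filtered peak in both Foxr2 p53LOF replicates. A peak passed the filters with a −log10 q above 6, a fold enrichment above 6, a length under 10000 bp and no overlap of 10 bp or more with a V5 control peak. Fold enrichment is the fragment number at a peak's summit over the background, each with 1 added, as the peak caller gave it. The folds of each library go with a single background value, not a local one. The gene region is the gene body with 10 kb on either side.

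The sequences behind the main findings are shown first, all from the GRCm38 mouse genome (mm10), each in the 5′ to 3′ direction of the strand named. Of 26 sites at receptor genes, 4 held the exact letters CCGGAAG, an ELK-type ETS sequence, within 200 bp around the mean summit. They are printed with the match in capitals because both Grik4 sites are among them and the other two lie at starts of neighbouring genes.
Grik4 upstream of its start (chr9:42944612-42944640, minus strand): gcggccgcggcCCGGAAGggacgccccct
Grik4 intron (chr9:42897749-42897777, plus strand): tcagcccgctcCCGGAAGgcccacgcgcc
Eif4e2 start, near Chrng (chr1:87214242-87214270, plus strand): ggccgcgccgcCCGGAAGgagattttcgg
Fdxr start, near Grin2c (chr11:115277168-115277196, plus strand): acctccagatgCCGGAAGtctagatttga

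For sites at the receptors' own starts, 120 bases around the replicate 1 summit are printed on the gene's strand, with each CpG dinucleotide in capitals. They were picked after their values were seen.
Gria2 (chr3:80801231-80801350, minus strand): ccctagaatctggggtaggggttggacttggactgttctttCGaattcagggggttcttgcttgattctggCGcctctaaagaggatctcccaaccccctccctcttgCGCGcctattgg
Grm8 (chr6:28135808-28135927, minus strand): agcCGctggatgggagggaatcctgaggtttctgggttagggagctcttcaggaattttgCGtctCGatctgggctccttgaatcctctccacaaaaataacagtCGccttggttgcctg
Gabrg1 (chr5:70843050-70843169, minus strand): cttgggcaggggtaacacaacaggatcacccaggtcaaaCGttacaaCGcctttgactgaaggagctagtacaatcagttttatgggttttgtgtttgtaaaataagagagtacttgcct
Grik4 (chr9:42944651-42944770, minus strand): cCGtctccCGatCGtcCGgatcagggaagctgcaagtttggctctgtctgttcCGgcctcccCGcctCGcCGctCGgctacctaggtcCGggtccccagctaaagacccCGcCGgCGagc
Drd1 (chr13:54056115-54056234, minus strand): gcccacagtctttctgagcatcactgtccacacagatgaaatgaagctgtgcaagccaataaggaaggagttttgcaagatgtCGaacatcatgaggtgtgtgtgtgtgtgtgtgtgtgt

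Beside them stand the 120 bases immediately upstream of the outermost start of receptor genes with a CpG-rich promoter and no peak in any of the 4 libraries, marked in the same way.
Gabbr2 (chr4:46991874-46991993, minus strand): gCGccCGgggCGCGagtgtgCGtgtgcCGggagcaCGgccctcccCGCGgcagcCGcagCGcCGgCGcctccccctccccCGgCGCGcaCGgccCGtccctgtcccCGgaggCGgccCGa
Htr7 (chr19:36057508-36057627, minus strand): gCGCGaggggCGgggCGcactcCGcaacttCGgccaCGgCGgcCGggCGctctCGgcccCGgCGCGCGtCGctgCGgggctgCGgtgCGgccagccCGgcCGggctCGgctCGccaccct
Gabra5 (chr7:57510060-57510179, minus strand): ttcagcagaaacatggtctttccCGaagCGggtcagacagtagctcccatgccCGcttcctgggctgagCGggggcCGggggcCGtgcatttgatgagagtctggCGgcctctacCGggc
Grin2a (chr16:9995561-9995680, minus strand): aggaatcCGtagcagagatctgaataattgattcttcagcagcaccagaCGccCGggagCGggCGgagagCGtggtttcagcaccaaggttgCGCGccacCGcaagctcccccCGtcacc

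The bound windows held 4 CpG in Gria2, 4 in Grm8, 2 in Gabrg1, 13 in Grik4 and 1 in Drd1. At the replicate 2 summit of the Drd1 site the window held 10, and the window at the Grin2d site, which is not printed, held 20. The windows without a peak held 21 CpG in Gabbr2, 23 in Htr7, 8 in Gabra5 and 10 in Grin2a. So a high CpG content was seen with and without a Foxr2 peak among these genes, and the windows sit at different distances from the start.

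Foxr2 sites were sparse at receptor genes. A site lay in the gene region of 17 of the 92 genes (18.5%), against 50.0% of all protein-coding genes. The receptor genes are long, with a median length of 54.6 kb against 17.4 kb for all genes, and from 10 length classes 50.4 of them would have a site, so the observed number was 0.337 of the expected one. Within 1 kb of a transcript start, 8 receptor genes (8.70%) had a site against 39.2% of all genes. From 5 classes of the CpG ratio at the start, 30.7 would have one. These are descriptions of the list, with no test.

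The long genes showed the gap as well. In the longest class, from 110 to 4435 kb, 6 of 33 receptor genes (18.2%) had a site, against 56.9% of all genes of that class. In the class from 58.1 to 110 kb, 3 of 12 did, against 61.8%. Among the 9 receptor genes in the highest class of CpG ratio, 2 had a site at a start, against 76.4% of all genes in that class.

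**Figure D1:**
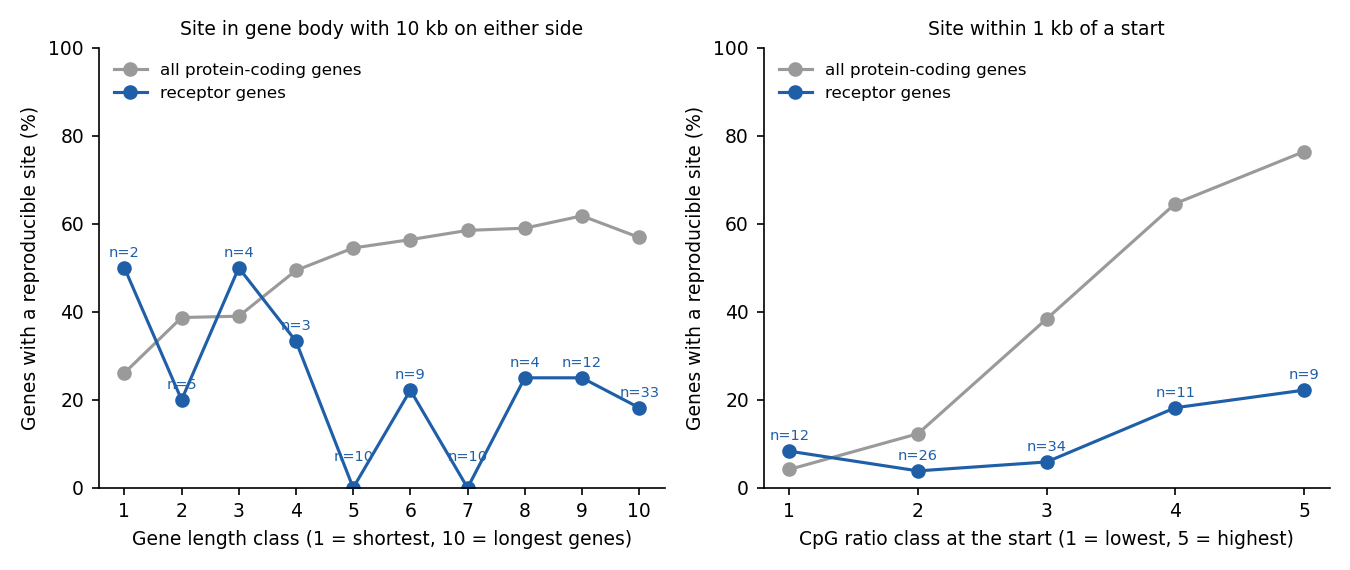
Percentage of genes with a reproducible site, for all protein-coding genes (grey) and receptor genes (blue). Left, site in the gene region by 10 gene length classes, right, site within 1 kb of a start by 5 classes of CpG ratio, with the number of receptor genes in each class. The receptor genes lie below all genes from length class 4 upward and from CpG class 2 upward.

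Measured per length of sequence, the gene regions of the receptors cover 16.8 Mb and hold 26 sites, or 1.55 per Mb, against 8.15 per Mb over the regions of all protein-coding genes. Sites within 1 kb of any gene's start came to 0.892 per Mb against 6.06, and sites farther from every start to 0.654 against 2.08. Density falls with gene length. Over genes of 100 kb or more, it was 1.00 per Mb at receptor genes against 4.03 per Mb, with 0.359 against 2.14 near a start and 0.645 against 1.89 farther away.

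The peaks before filtering showed the same order with a smaller gap. Overlapping deposited peaks of both replicates lay in the gene region of 39 receptor genes (42.4%), against 62.6% of all genes, with 65.2 expected from length. Within 1 kb of a start there were 22 such genes (23.9%), against 50.9% of all genes. In the separate libraries, whose lists held 31909, 38580, 308 and 124 peaks, a deposited peak lay in the region of 47 receptor genes in Foxr2 p53LOF replicate 1 and 52 in replicate 2, against 66.1% and 66.9% of all genes. It lay in the region of 1 receptor gene in V5 control replicate 1 and 0 in replicate 2, against 0.525% and 0.260% of all genes. Both Foxr2 p53LOF values lie far above both control values, but 2 libraries against 2 cannot pass any usual threshold (two-sided exact permutation test over 6 regroupings, p = 0.333, the smallest it can give).

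Of the 92 genes, 17 had a site, 22 had overlapping peaks that did not both pass the filters, 16 had peaks that did not overlap between the replicates and 37 had no peak in either Foxr2 p53LOF library. Of all protein-coding genes, 50.0%, 12.6%, 6.72% and 30.7% fell in these steps, and from length classes 50.4, 14.8, 6.89 and 19.9 receptor genes would. The last group held 13 of 19 GABA-A subunit genes, with 3.36 expected from length, and 8 of 13 serotonin receptor genes, with 3.09. It held 2 of 19 ionotropic glutamate receptor genes, with 3.02 expected.

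**Figure D2:**
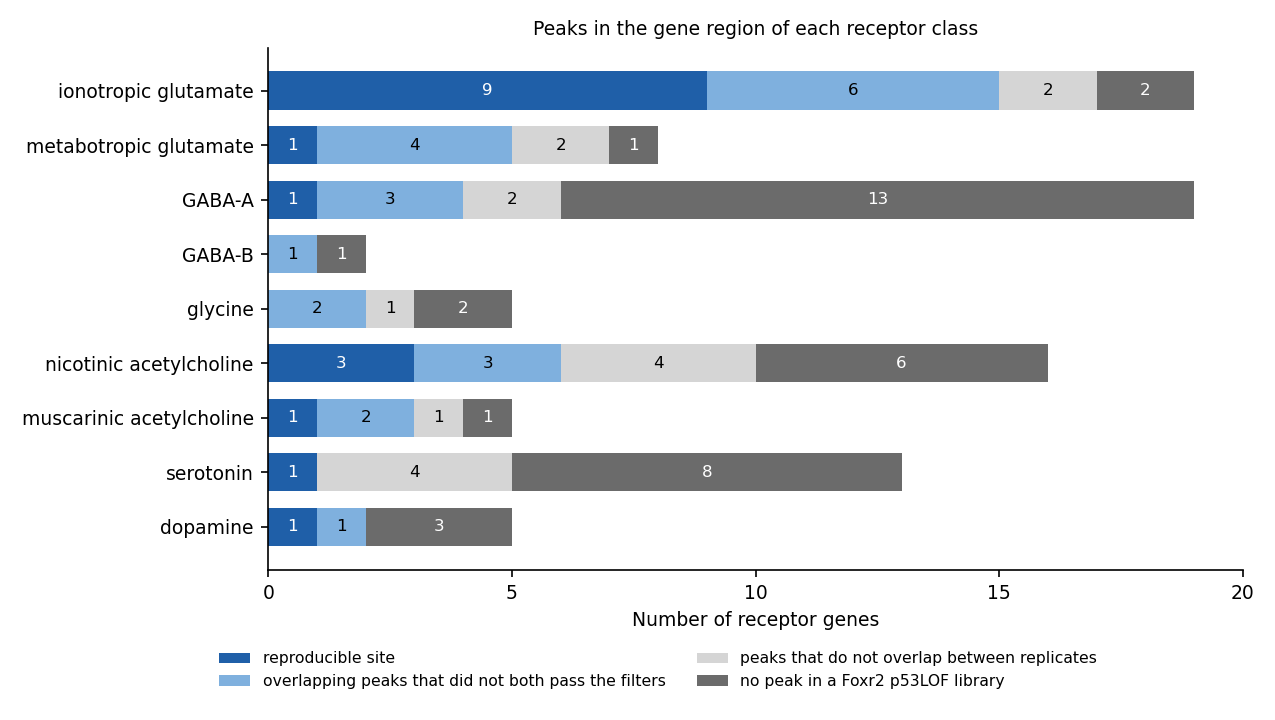
Number of receptor genes of each class by what the Foxr2 p53LOF libraries held in their gene region: a reproducible site, overlapping peaks that did not both pass, peaks that did not overlap, or no peak. Dark grey, no peak, takes 13 GABA-A and 8 serotonin receptor genes.

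Ionotropic glutamate receptor genes held most of the sites. They held 17 of the 26, and a site lay at 9 of 19 of these genes, with 10.7 expected from length, and 5 (26.3%) had a site at their own start, with 9.38 expected from CpG ratio and 39.2% over all genes. As a ratio of observed to expected sites in the gene region, this class came nearest to its length allowance, while in the muscarinic, dopamine and GABA-B classes the gap in gene numbers was smaller. Of the 19 genes of the ionotropic class, 1 was taken in by its symbol and encodes no receptor subunit. The metabotropic glutamate receptors had 1 of 8 with 4.55 expected, GABA-A 1 of 19 with 11.0, GABA-B 0 of 2 with 1.15 and glycine 0 of 5 with 2.94. The nicotinic receptors had 3 of 16 with 8.34 expected, muscarinic 1 of 5 with 2.22, serotonin 1 of 13 with 7.07 and dopamine 1 of 5 with 2.40. By transmitter, a site lay at 10 of 27 glutamate receptor genes with 15.3 expected from length, and at 1 of 21 GABA with 12.2. For glycine it was 0 of 5 with 2.94 expected, and for acetylcholine 4 of 21 with 10.6. For serotonin it was 1 of 13 with 7.07, and for dopamine 1 of 5 with 2.40. Of all protein-coding genes, 50.0% had a site.

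**Figure D3:**
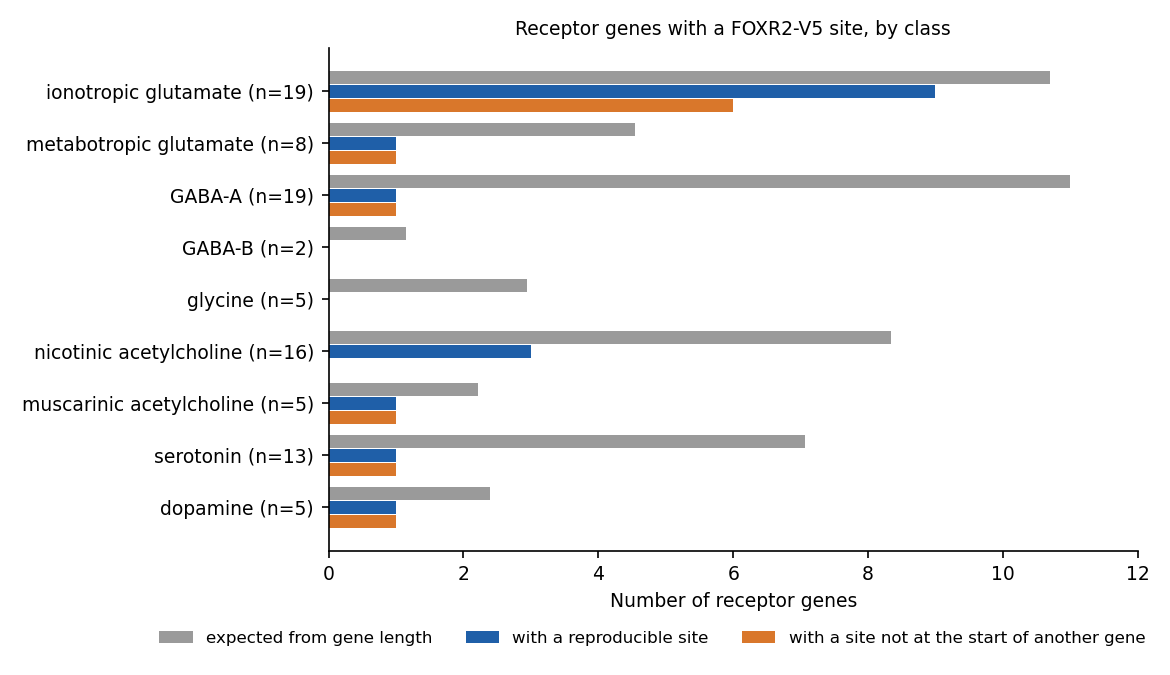
Number of genes in each receptor class with a reproducible site (blue), the number expected for it from gene length (grey) and the number with a site that is not within 1 kb of another gene's start (orange). In the ionotropic glutamate class blue reaches 9 against a grey bar of 10.7, and in the GABA-A class 1 against 11.0.

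The strongest sites in these regions sat at the starts of neighbouring genes. Of the 26 sites, 8 lay within 1 kb of the receptor's own start, 7 within 1 kb of the start of another gene, and 11 farther from every start. The strongest, at percentile 98.5 of all 11943 sites, lay downstream of Grin3b, an NMDA receptor subunit gene, at the start of Tmem259 (chr10:79983481-79986950). Its fold enrichment was 27.4 (95% exact Poisson interval 21.1 to 35.1) in replicate 1 and 30.9 (25.0 to 37.8) in replicate 2. Intervals in parentheses after a fold are of this kind throughout and cover counting error only.

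Next in strength was the site downstream of Chrng, the fetal muscle nicotinic subunit, at 17.7 (12.7 to 24.0) and 21.7 (16.8 to 27.5). It lies at the start of Eif4e2, a cap-binding translation factor, and carries the ETS letters printed above. The site upstream of Chrnb2, a subunit of the main brain nicotinic receptor, had folds of 16.8 and 23.0 and lies at the start of Ube2q1. The site upstream of Grin2c, an NMDA receptor subunit of the cerebellum, had folds of 13.7 and 19.1. It lies at the start of Fdxr, the mitochondrial ferredoxin reductase, again with the ETS letters.

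At the other three such sites the folds were lower. They were 11.0 and 16.1 downstream of Grin2d at Grwd1, 9.28 and 10.2 upstream of Grik5 at Zfp574, and 7.95 and 8.21 upstream of Chrnb1 at Fgf11. When sites within 1 kb of another gene's start were left out, 11 of 92 receptor genes (12.0%) kept a site, against 34.8% of all genes, with 38.9 expected from length. All 3 nicotinic genes were then without a site, since each had only a neighbour's. The ionotropic glutamate class fell from 9 to 6 of 19, with 8.92 expected, without Grin3b, Grin2c and Grik5. The muscarinic and dopamine classes each kept 1 gene, with 1.65 and 1.66 expected.

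**Figure D4:**
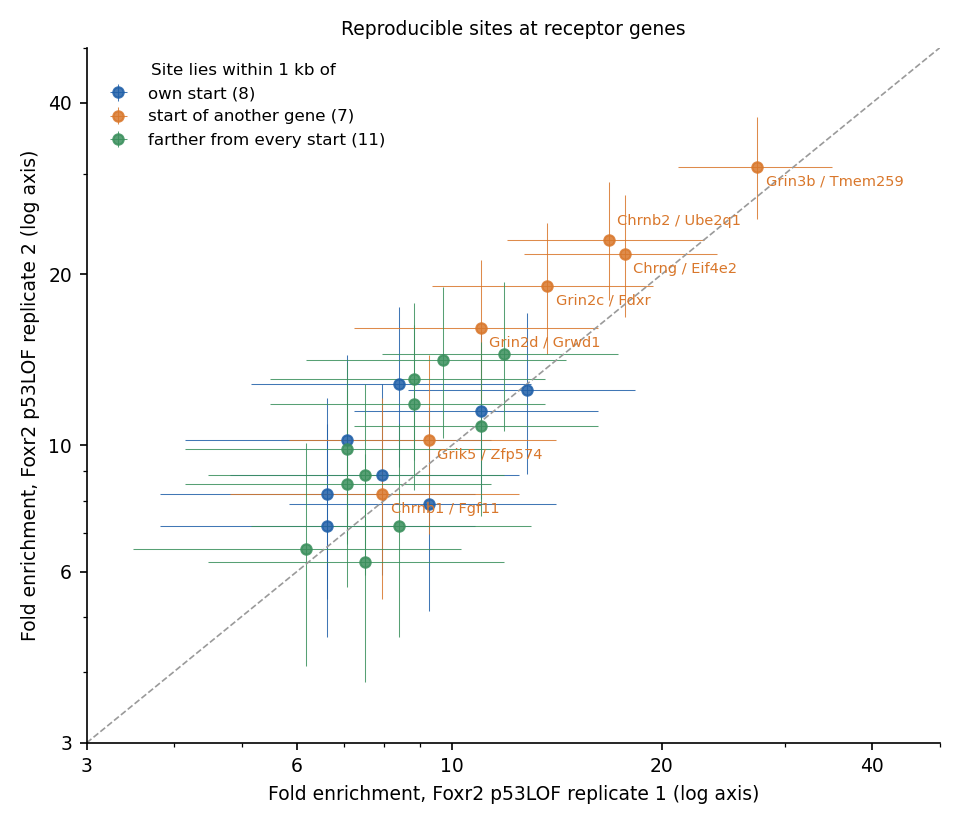
Fold enrichment of the 26 sites at receptor genes in Foxr2 p53LOF replicate 1 (horizontal) and replicate 2 (vertical), both on log axes, with 95% exact Poisson intervals and the line of equal values. Orange points lie at the start of another gene, named after the receptor, and take the highest values, up to 27.4 and 30.9 for the site at Tmem259.

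Among the AMPA receptor genes, which encode the main channels of fast excitation, Gria2 and Gria4 had a site that reached their own start. Gria2 sets whether the channel lets calcium pass. Its site (chr3:80800169-80803735) had folds of 12.8 (8.66 to 18.3) and 12.5 (8.89 to 17.1), the highest lower fold of any site at a receptor's own start. The site reaches the 1 kb window, but its summit lies in an intron 1545 bp from the start. The Gria4 site had folds of 9.28 and 7.88, with summits 262 and 183 bp from the nearest start. Gria1 had overlapping peaks of 4.42 and 4.27 in an intron, below the minimum fold, and Gria3, on the X chromosome, had no peak.

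The kainate receptor genes, whose products tune transmission on both sides of the synapse, held sites mainly inside introns. Grik3 had 4 intronic sites and none within 1 kb of its start. Their folds ran from 8.84 to 11.9 in replicate 1 and from 10.8 to 14.5 in replicate 2, and their replicate 2 summits lie from 44168 to 212700 bp inside the gene. Grik4 had a site at its start (chr9:42943253-42944883), with folds of 7.07 and 10.2, and another in an intron (chr9:42896706-42898652), with 8.84 and 11.8. Both carry the ETS letters printed above. The summits of the site at the start lie 217 and 215 bp upstream, so the replicates differ by 2 bp. Grik2 just missed at its start, with folds of 5.74 and 7.23, and Grik1 had 4.42 and 6.90.

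Grid1, a delta receptor gene of 763 kb, had 5 overlapping peak pairs and no site. By the lower fold, the strongest pair had folds of 5.30 and 6.57. The lower fold of that pair is under the minimum of 6. Another pair had 4.86 in replicate 1 and 9.86 in replicate 2.

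Of the NMDA receptor genes, which encode the coincidence-detecting glutamate channels, Grin2d alone had a site near its own start. The folds were 6.63 (3.82 to 10.8) and 8.21 (5.38 to 12.1), with the summit in a coding exon 780 bp from an internal start. That summit lies at chr7:45866349, and the outermost start of Grin2d at chr7:45878378. Grin2b, 460 kb long, missed by little. The strongest Grin2b pair had folds of 6.19 and 5.91, where 17 fragments were counted in replicate 2 and 18 were needed. Grin1, the obligatory subunit, had a peak in replicate 2 alone despite a CpG ratio of 0.977 at its start, and Grin2a, 428 kb, had none.

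Among the metabotropic glutamate receptor genes, Grm8, a presynaptic receptor 860 kb long, had the sites of the class. The one reaching its start (chr6:28134725-28136088) had folds of 11.0 (7.24 to 16.2) and 11.5 (8.06 to 15.9), with summits 1322 and 1346 bp upstream. An intronic site had 7.51 and 8.87. Grm3, Grm4, Grm5 and Grm6 had overlapping peaks whose lower fold was between 3.94 and 4.86. Grm7, 922 kb and the longest of the class, had 3 and 4 peaks in the 2 libraries and none that overlapped, and Grm2, the shortest at 13.0 kb, had none.

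Receptors of inhibition were nearly free of sites. Gabrg1 (site at chr5:70842519-70843678), a GABA-A gamma subunit, was the only one of 26 GABA and glycine receptor genes with a site, at folds of 7.95 (4.82 to 12.5) and 8.87 (5.91 to 12.8), with summits 492 and 522 bp upstream of its start. Its neighbour in the same cluster on chromosome 5, Gabra2, had no peak. Gabrr3, a rho subunit, had a pair at 5.74 and 9.53, but this lies downstream at the start of Riox2. Gabrb1, 491 kb, had 1 peak in replicate 2 alone. Gabrg3, the longest GABA-A gene at 671 kb, and Gabrd, the shortest at 13.1 kb, had none.

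Gabbr1, which binds the ligand in the GABA-B receptor, had overlapping peaks of 4.86 and 5.91 at 156 bp upstream of a start. Gabbr2, the partner that couples to the G protein, had no peak, with a length of 330 kb and a CpG ratio of 0.924 at its start. Among the glycine receptor genes, Glrb, the beta subunit that ties the channel to gephyrin, had 3.53 and 5.26 near a start. Glra4, the shortest of the class at 22.5 kb, had 4.42 and 3.61, and the longest, Glra2 at 198 kb, had no peak.

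In the nicotinic class no gene had a site at its own start. Chrnb1 had a pair at its start with folds of 6.63 and 5.59, the second under the minimum. Chrnd, the delta subunit of muscle, had upstream pairs of 6.19 and 5.91, and of 7.51 and 5.91 (chr1:87185964-87187144 in replicate 1). Both had 17 fragments in replicate 2, where 18 were needed. Chrna7, the longest of the class at 114 kb and the alpha7 channel of the brain, had 3.53 and 3.94 at its start. Chrne, the shortest at 4.33 kb, had 2 peaks in each library and no overlap. Chrna3 and Chrnb4, the ganglion-type pair, had none.

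Chrm4, an inhibitory muscarinic receptor and at 1.44 kb the shortest gene of the set, had a site upstream (chr2:91921826-91922337), its summit 5305 bp from the start. Its folds of 6.19 (3.50 to 10.3) and 6.57 (4.09 to 10.1) are just inside the minimum. Chrm1 had a peak pair at 7.51 and 4.93, the second under the minimum, and Chrm3, 485 kb, had 5.74 and 3.94 in an intron. Chrm3 had 1 peak in replicate 1 and 8 in replicate 2.

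Htr2a, the receptor for serotonergic hallucinogens, was the serotonin receptor gene with a site. It lies in an intron (chr14:74642479-74643494), its replicate 1 summit 2539 bp from the start, with folds of 8.39 (5.15 to 13.0) and 7.23 (4.60 to 10.9). Of the other 12 serotonin receptor genes, none had overlapping peaks. Htr1b, Htr2b, Htr4 and Htr6 had 1 peak in a single library. Htr2c on the X chromosome, the longest at 235 kb, and Htr1a, the shortest at 4.48 kb, had none, and neither did Htr7 with a CpG ratio of 0.924.

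Drd1, the receptor that raises cyclic AMP in the direct pathway of the striatum, had the site of the dopamine class (chr13:54055030-54056346). The folds were 6.63 (3.82 to 10.8) and 7.23 (4.60 to 10.9), from 14 and 21 fragments. The summits lie 604 bp apart, in replicate 1 at 469 bp upstream of the outermost start and in replicate 2 at 88 bp past an internal start. Drd2, its counterpart of the indirect pathway, had no peak, and neither had Drd3, the longest at 68.9 kb, or Drd5, the shortest at 3.15 kb.

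Drd4 was the only receptor gene with a V5 control peak. Peaks downstream of the gene had folds of 5.74 in Foxr2 p53LOF replicate 1, 7.88 in replicate 2 and 5.20 in V5 control replicate 1. They start within 1 bp of each other, at chr7:141298007-141298425, chr7:141298008-141298428 and chr7:141298008-141298421. The signal beside Drd4 was thus also present without the tag. The replicate 1 fold is under the minimum of 6, so Drd4 had no site with or without the removal of peaks that overlap a control peak.

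In strength the sites at receptor genes were close to other sites. The median fold was 8.84 in replicate 1 and 10.5 in replicate 2, against 9.28 and 10.8 over all sites. These medians include the strong sites at starts of other genes. At the receptors' own starts the lower folds ran from 6.63 at Drd1 and Grin2d to 12.5 at Gria2. Of these, only Gria2 and Grm8 exceeded 9.72, the median lower fold of all sites near a start. Over all the sites at receptor genes, strength also differed between replicates. The fold was higher in replicate 2 at 80.8% of the sites at receptor genes, against 75.1% of all sites, so most sites of either kind leaned towards replicate 2. Just inside the limits lay Chrm4 and Drd1, just outside Chrnd, Grin2b and Grik2, and their intervals overlap.

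CCGGAAG was found in 15.4% of the sites at receptor genes and 5.60% of all sites, on either strand. By place it was in 3 of 15 sites near a start, against 7.59%, and in 1 of 11 farther away, against 1.86%. With 4 matches this is a description. The ETS1-type letters CAGGAAG, the forkhead letters TGTTTAC and exact NRF1, YY1, CRE and REST half-element letters were in 0 of 26. Over all sites they were in 7.72%, 1.93%, 1.42%, 1.10%, 0.812% and 0.218%. The GC box, GGGCGG, was in 30.8% against 29.2%. None of the letter strings searched contains another, and a window without them may hold other versions of the same motif.

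Genes whose products work beside the receptors came nearer to the numbers that length and CpG ratio give. Of 48 partner genes (AMPA and kainate receptor auxiliary subunits, postsynaptic scaffolds, gephyrin and its partners, nicotinic chaperones), 30 (62.5%) had a site in the gene region, with 26.7 expected from length. A site lay near a start in 22 (45.8%), with 24.2 expected from CpG ratio. Nlgn2, the adhesion protein of inhibitory synapses, had folds of 36.7 and 45.3 at its start. Dlg4, the scaffold PSD-95 of excitatory synapses, had 30.0 and 33.5. Gphn, the gephyrin scaffold that gathers glycine and GABA-A receptors, had 12.8 and 12.2, whereas none of the glycine receptor genes had a site.

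Of 33 genes for transmitter synthesis, transport and breakdown, 13 (39.4%) had a site, with 18.7 expected from length. Near a start there were 8 (24.2%), with 12.7 expected from CpG ratio. Slc6a9, the glial glycine transporter, had folds of 24.7 and 29.9 at its start. Glul, the enzyme that makes glutamine from glutamate, had 12.8 and 17.4. Th and Tph2, which act early in making dopamine and brain serotonin, and Chat, which makes acetylcholine, had no site. Ddc, which acts after both Th and Tph2, had 2 sites, with folds of 11.5 and 13.5 at 1 of them. Neither lay within 1 kb of its start.

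Chromosome X was poor in sites for all genes, with 14.7% of its protein-coding genes holding one. It carries 7 of the receptor genes, and none had a site. The expected number falls from 50.4 to 48.6 with 3 length classes within each chromosome in place of 10 over all, a setting chosen after seeing the data, and to 43.1 when length is crossed with the CpG ratio at the start. The observed 17 lay below each.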

How the data were processed

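CUT&RUN was done with a V5 antibody on 2 Foxr2 p53LOF and 2 V5 control libraries. The authors trimmed reads (Trimmomatic 0.39), aligned them to mm10 (BWA 0.7.17), removed duplicates (Picard 2.26.6) and called peaks per library (MACS2 2.2.7.1). The deposited peak lists give a fold enrichment ratio, −log10 p and −log10 q, a display score that was not used, and the summit position. They held 31909 and 38580 peaks (Foxr2 p53LOF) and 308 and 124 (V5 control). Read totals are not in the lists. The median deposited fold was 5.30, 4.93, 6.68 and 14.9.

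The filters of the study's methods, without its open chromatin step, were applied. Fragment numbers were recovered from the folds as (n + 1)/(background + 1), with a background of 1.2635, 2.044, 1.694 and 0.6425 fragments, so that a fold above 6 needed 13, 18, 16 and 9 fragments. Intervals are 95% exact Poisson intervals. Genes and starts came from GENCODE M21 (protein-coding transcripts). The CpG ratio is observed over expected CpG in the 1 kb around the outermost start. The expected number of genes is the sum over receptor genes of the share of all protein-coding genes of the same class with a site. A peak list omits what the caller did not call, so a gene without a peak was not shown to lack binding.

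Some genes that these rules take in are not reported here by name. Members and gene lists were chosen with earlier results of these data known. Named were genes with a site at a start, the 12 with the highest lower fold, the 8 longest without a site, genes with a control peak, the longest and shortest of each class, and neighbours whose start lies at a named site. Other genes were named after their values were seen. The steps were tested on simulated data. Python 3.11.15, pandas 2.3.3, NumPy 2.4.6, SciPy 1.17.1 and pysam 0.24.0 were used.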

Additional observations from a re-analysis of the deposited data

How the results depend on the processing

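The number of receptor genes with a site in the gene region was 17 and stayed within 1.5 times of it under most settings. It moved to 8 with a minimum fold of 10 (26.6 expected from length), 10 in the gene body alone, 44 with 50 kb on either side (62.4 expected) and 11 without sites at other genes' starts. With no minimum on fold or q, chosen after seeing the data, it was 38 (65.0 expected). Sites near a start moved from 8 to 5 with a minimum −log10 q of 10, to 2 with a minimum fold of 10 and to 22 with no minimum on fold or q. The expected number of 50.4 moved by over 1.5 times with the minimum fold of 10 alone. The observed number was below the expected one under every setting, from 0.222 of it (gene body alone) to 0.705 (50 kb on either side). Leaving out 1 library gave 17 to 24 genes with a site and 8 to 12 near a start, from filtered peaks of the other Foxr2 p53LOF library alone where that group lost one. Of 135 counts by receptor class, 31 moved by over 1.5 times, and most of these counts are small. With 50 kb on either side, serotonin went from 1 to 8 genes and nicotinic from 3 to 8. With a minimum fold of 10, ionotropic glutamate went from 9 to 5. The mean number of genes with a deposited peak stayed higher in the Foxr2 p53LOF libraries under every setting, by 23.5 to 51.5. No paired analysis was possible because the groups are separate lines that share only replicate numbers and the values are counts per library.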
